A study of Arvicanthis niloticus with 5 samples.

Results

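The genes that drive the cell division cycle and copy the DNA were examined in RNA of the Nile rat eye. The Nile rat, Arvicanthis niloticus, is a day-active African rodent. Members were chosen by symbol: cyclins A, B, D and E, numbered cyclin-dependent kinases (CDKs), CDK inhibitors, MCM and ORC proteins, E2F factors, RB1 and its relatives, CDC6, CDC7, CDC20, CDC25 and CDC45, CDT1, geminin, Aurora and polo-like kinases, BUB proteins, MKI67, TOP2A and PCNA. The rule found 84 symbols among 13982 named genes, and it used no expression value. Symbols are written in capitals, since they were taken from mouse, rat and human names.

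All samples were wild type eye tissue. The labels list 5 samples in 1 group, with no age, treatment or time of day, and their protocol describes a library pooled from 5 rats. The table holds 1 value per transcript for the whole series, so groups cannot be compared, and no spread between animals can be given. The sources used do not state how that column relates to the listed samples, and it is treated here as 1 pool. Values are in FPKM, the fragments of a transcript divided by its length in kilobases and by the mapped fragments in units of 1000000, summed over the transcripts of a gene. Brackets hold 95% intervals for counting error alone, and no p-value is given. The header of the table states 64967222 mapped fragments, and a member rested on 43 to 8426 fragments (median 748). Marker lists were read beside the tissue label. All 9 lens markers and all 7 photoreceptor markers were above 1 FPKM, but so were 93.2% of all named genes, so the levels tell more than the counts. The list medians were 253 FPKM for lens and 305 FPKM for photoreceptors, led by CRYAA (1263 FPKM) and GNAT1 (344 FPKM).

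A cell enters the cycle when D-type cyclins with CDK4 or CDK6 phosphorylate the retinoblastoma protein RB1 and its relatives, which releases E2F transcription factors. Origins of replication are then licensed by the origin recognition complex (ORC), CDC6 and CDT1, which load the MCM helicase, and CDK1 with the A- and B-type cyclins drives mitosis. CDK inhibitors hold cells out of the cycle. In the adult rodent eye most neurons and lens fibre cells no longer divide, while epithelial cells of the cornea and the lens can. In a bulk pool, fewer cells of a dividing type and less RNA per cell cannot be told apart.

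The members lay somewhat below the other named genes. Their median was 4.38 FPKM, against 6.51 FPKM for the 13898 other named genes, a log2 ratio of -0.57. Of the 84 members, 80 reached 1 FPKM, where 93.2% of all named genes did. At 5 FPKM the count was 39 members, against 59.8% of all named genes, and at 10 FPKM it was 23 members, against 34%. Summed, the members made up 0.293% of the total FPKM of named genes. The highest was CCND1, cyclin D1, at 34.8 FPKM, above the level of 90.5% of named genes, and the lowest was CDK15, a little studied kinase, at 0.873 FPKM [0.683 to 1.10]. Along the order of the members, 71 of the 83 neighbouring pairs had a log2 ratio whose interval held 0, so the order holds over wider steps and not gene by gene. At the top, CCND1 was above BUB3 and BUB3 above MKI67IP beyond counting error, while CCND3, PLK5, CDK16 and CDK14 could not be ordered.

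**Figure D1:**
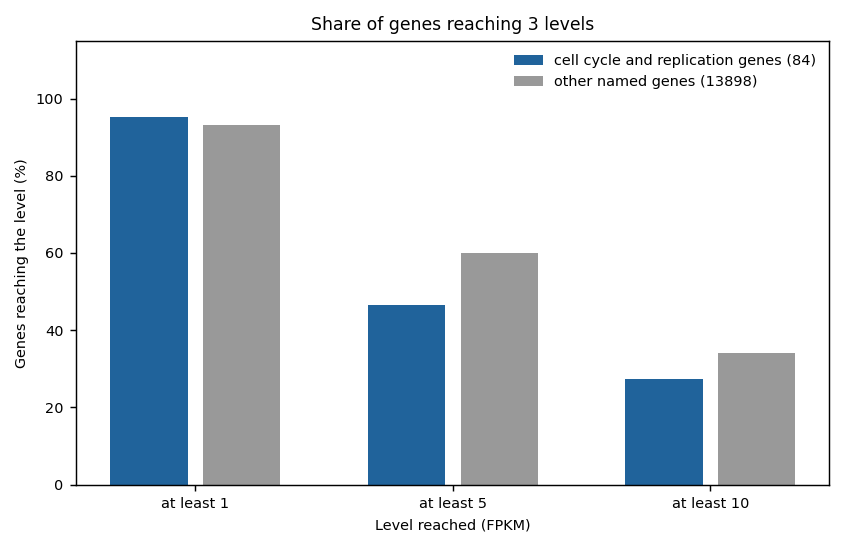
Percent of genes (bars from 0) that reached 1, 5 and 10 FPKM, for the 84 cell cycle and replication genes (blue) and the 13898 other named genes (grey). The blue bar is lower at 5 and at 10 FPKM, with 46.4% and 27.4% of members.

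**Figure D2:**
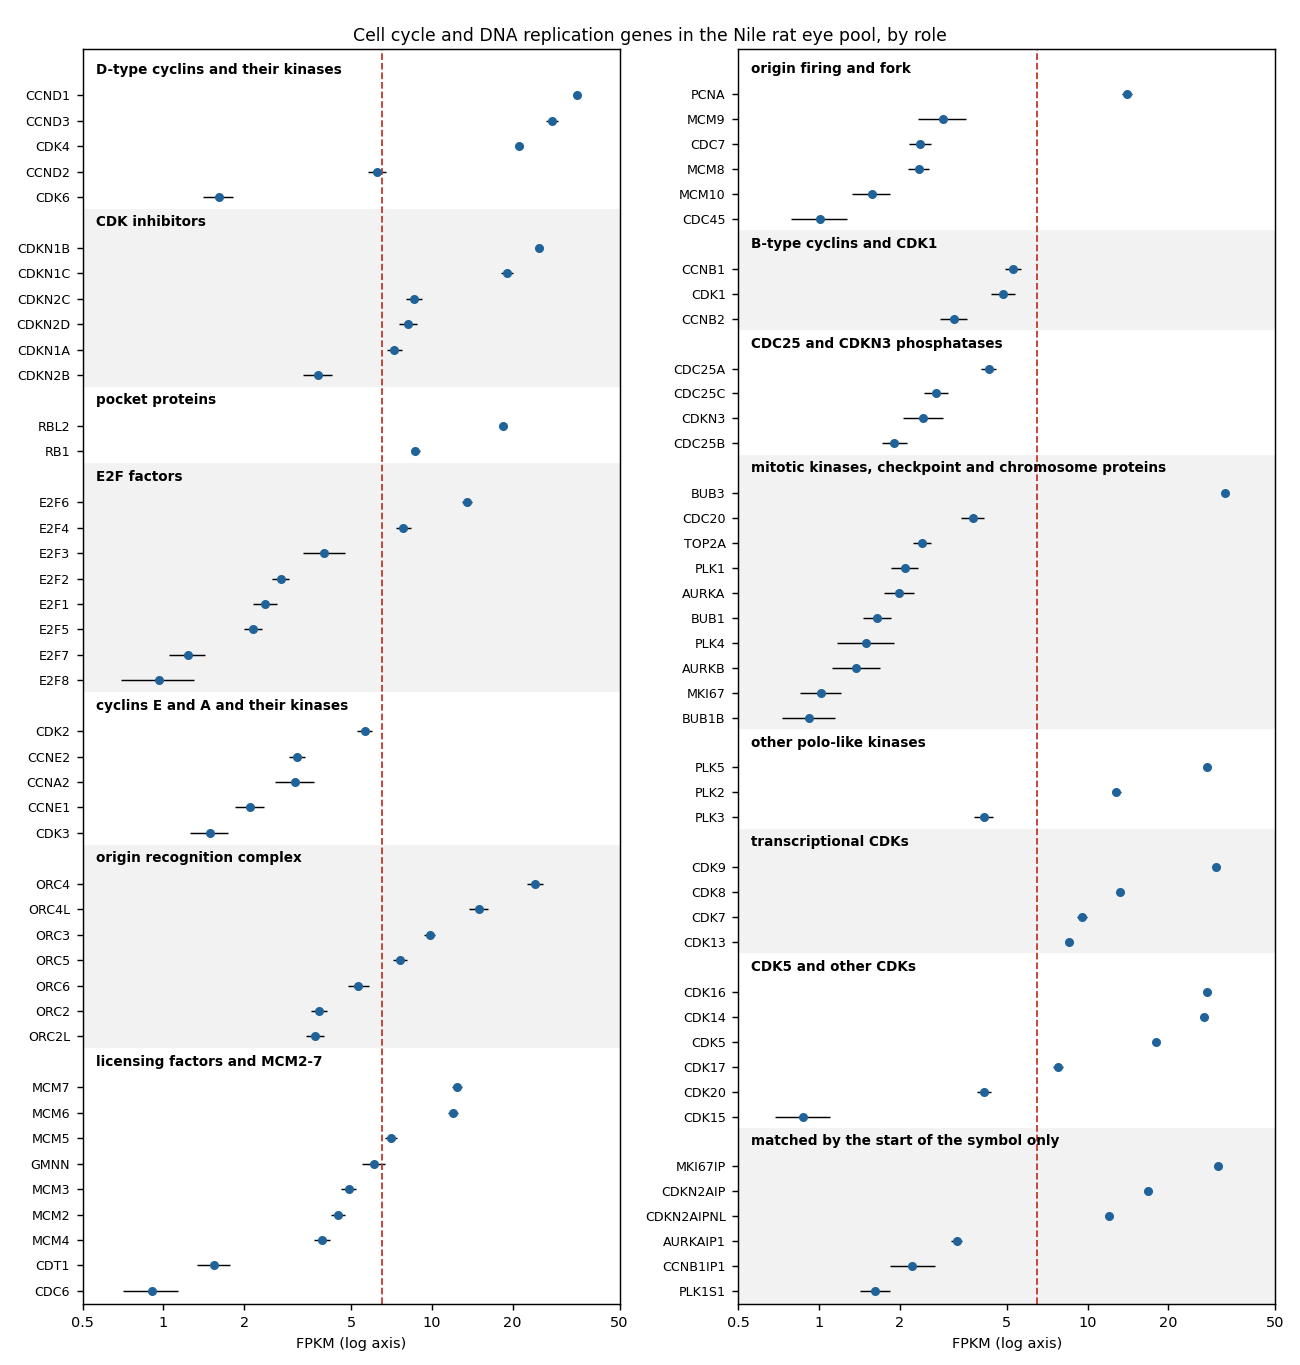
Level of each member in FPKM on a log axis, grouped by role. Points are the pooled values, lines are 95% counting intervals and the dashed line is the median of the other named genes, 6.51 FPKM; mitotic genes lie left of it except BUB3.

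The D-type cyclins and CDK4 stood out among the cyclins and their kinases. CCND1 had 34.8 FPKM [34.0 to 35.5], CCND3 had 28.1 FPKM [26.7 to 29.5] and CCND2 had 6.23 FPKM [5.76 to 6.72]. CCND1 was 5.58-fold [5.16 to 6.04] above CCND2 and 1.24-fold [1.17 to 1.31] above CCND3. Cyclins D1 and D3 made up most of the D-type cyclin RNA. Summed, the D-type cyclins reached 69.1 FPKM, 13.2-fold [12.3 to 14.1] above the E-type cyclins, 22.4-fold [19.0 to 26.4] above CCNA2 and 8.18-fold [7.66 to 8.73] above the B-type cyclins. Of the kinases that pair with D-type cyclins, CDK4 had 21.2 FPKM and CDK6 had 1.60 FPKM, a ratio of 13.2 [11.6 to 15.0]. CDK6 was named from the human column alone and rested on 240 fragments.

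The CDK inhibitors lay mostly above the median of the other named genes, in 5 of 6 cases. The CIP/KIP inhibitors, which bind cyclin and CDK together, were led by CDKN1B (p27) at 25.0 FPKM [24.2 to 25.9] and CDKN1C (p57) at 19.0 FPKM [18.1 to 20.1]. CDKN1A (p21), a target of p53, had 7.25 FPKM, a log2 ratio of -1.79 [-1.89 to -1.68] to CDKN1B and -1.39 [-1.51 to -1.27] to CDKN1C. CDKN1B summed 2 transcripts: one of 2725 nt had 20.3 FPKM, and one of 865 nt, named in human only, had 4.71 FPKM. The log2 ratio of CDKN1B to CDKN1C was 0.39 [0.30 to 0.48] with the sum and turned to -0.20 with a length-weighted mean of the transcripts, so the order of these 2 inhibitors depended on that choice. The INK4 inhibitors, which bind CDK4 and CDK6, lay below CDKN1B and CDKN1C. CDKN2C (p18) had 8.58 FPKM and CDKN2D (p19) had 8.14 FPKM, a log2 ratio of 0.08 [-0.07 to 0.22], and CDKN2B (p15) had 3.76 FPKM. CDKN2C was the sum of 2 transcripts of nearly equal level, and with the higher one alone its log2 ratio to CDKN2D was -0.90. That transcript had 4.35 FPKM, below the median of the other named genes, so CDKN2C was among the 5 only through its sum. No transcript carried the symbol CDKN2A, which is not analysed here.

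Of the pocket proteins, which hold E2F factors in check, RBL2 (p130), the form known from resting cells, was the higher. RBL2 had 18.4 FPKM [18.0 to 18.9] on 6461 fragments and RB1 had 8.68 FPKM [8.35 to 9.02] on 2568.5 fragments, a log2 ratio of RB1 to RBL2 of -1.08 [-1.15 to -1.02]. RBL1 (p107) is not analysed here because no transcript carried its symbol. The E2F factors had a median of 2.56 FPKM, and 2 of 8 were above the median of the other named genes. These were E2F6, a repressor that acts without pocket proteins, at 13.5 FPKM [13.0 to 14.1], and E2F4, the main partner of RBL2 in resting cells, at 7.83 FPKM [7.35 to 8.33]. The activators of S phase genes were lower: E2F1 had 2.39 FPKM, E2F2 had 2.73 FPKM and E2F3 had 3.98 FPKM on a transcript of only 499 nt. E2F4 was 3.27-fold [2.90 to 3.69] above E2F1. E2F5, the other pocket-protein repressor, had 2.15 FPKM, and the atypical repressors E2F7 and E2F8, themselves made in S phase, had 1.23 and 0.961 FPKM. E2F8 rested on 43 fragments, the fewest of any member.

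Cyclins E and A and their kinases were low without exception, and none of the 5 measured reached the median of the other named genes. CDK2, the kinase of S phase entry, had 5.62 FPKM [5.27 to 5.99]. CCNE2 had 3.15 FPKM and CCNE1 had 2.10 FPKM, and CCNA2, the cyclin of S phase and G2, had 3.09 FPKM on a transcript of 720 nt. CDK3 had 1.49 FPKM. No transcript carried the symbol CCNA1.

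**Figure D3:**
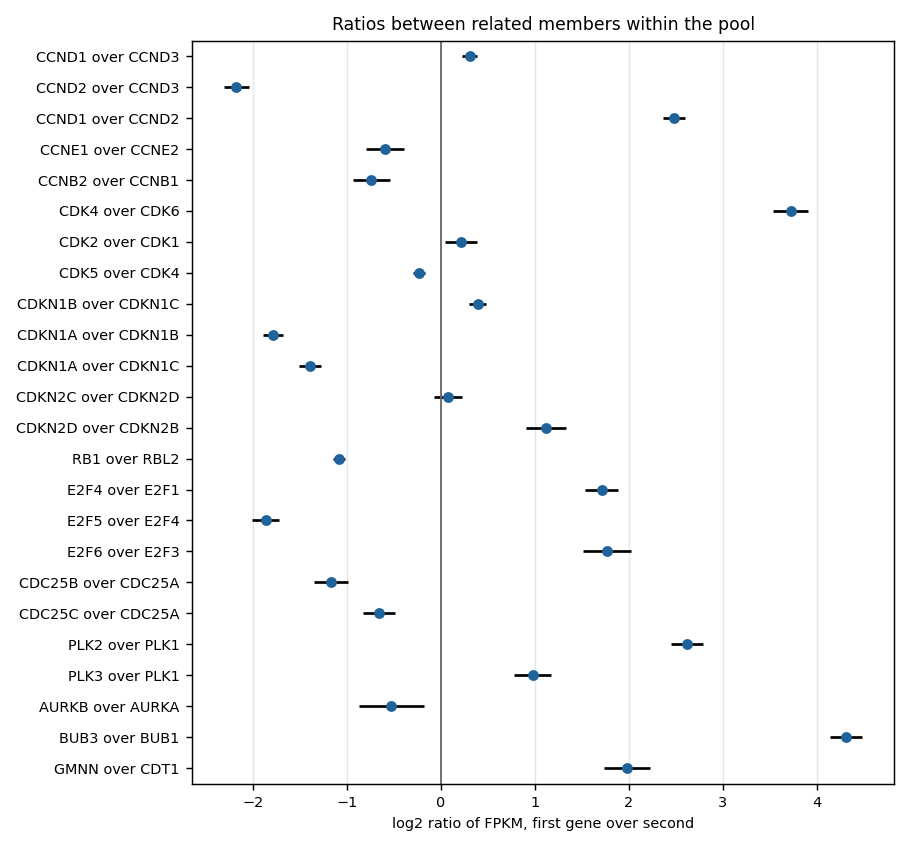
Log2 ratio of FPKM for 24 pairs of related members, first gene over second; points are pooled values, lines are 95% counting intervals and the vertical line marks equal levels. The ratios of BUB3 to BUB1 (4.31) and of CDK4 to CDK6 (3.72) are the farthest from 0, and CDKN2C over CDKN2D is the pair whose interval holds 0.

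The origin recognition complex, which marks the sites where replication can start, was present in 5 of its subunits, with unequal levels. ORC4 had 24.3 FPKM [22.6 to 26.0], ORC3 had 9.81 FPKM, ORC5 had 7.59 FPKM, ORC6 had 5.31 FPKM and ORC2 had 3.81 FPKM [3.55 to 4.08]. ORC4 was 6.38-fold [5.79 to 7.03] above ORC2. This span rests on how pieces were combined: ORC4 was the sum of 2 transcripts, of 314 nt at 11.7 FPKM and of 1244 nt at 12.6 FPKM, and with the higher transcript of each gene the span fell to 3.30. Transcripts that carried the older symbols ORC2L (3.66 FPKM) and ORC4L (14.9 FPKM on 579 nt) counted as members of their own. Added to their genes they brought ORC2 to 7.47 FPKM and ORC4 to 39.2 FPKM. ORC1 is not analysed here because no transcript carried its symbol.

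The MCM2-7 helicase, a ring of 6 different subunits, was within about 3-fold from subunit to subunit. MCM7 had 12.4 FPKM [11.8 to 13.0] and MCM6 had 12.0 FPKM [11.5 to 12.5]. MCM5 followed at 7.05 FPKM [6.69 to 7.43]. MCM3 had 4.91 FPKM, MCM2 had 4.47 FPKM and MCM4 had 3.89 FPKM [3.64 to 4.16]. MCM7 was 3.18-fold [2.94 to 3.45] above MCM4, and MCM6 and MCM7 lay apart from the other 4 beyond counting error. Each subunit was carried by a single transcript of 2286 to 3686 nt. The loaders of the ring were lower still: CDT1 had 1.54 FPKM [1.33 to 1.77] and CDC6 had 0.903 FPKM [0.707 to 1.14] on 72 fragments. Geminin (GMNN), which blocks CDT1 after S phase has begun, had 6.06 FPKM, 3.94-fold [3.32 to 4.67] above CDT1.

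**Figure D4:**
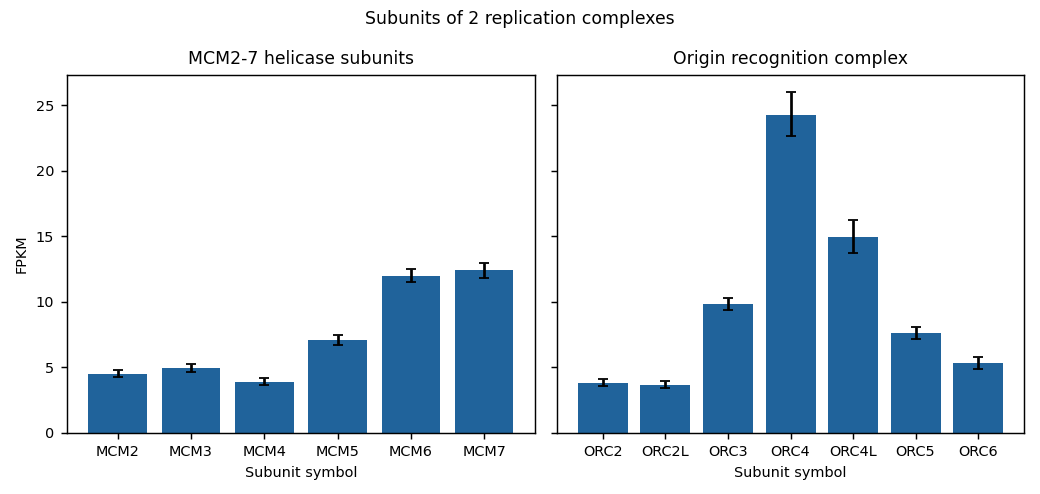
FPKM of the MCM2-7 subunits (left) and of the ORC symbols (right), bars from 0 with 95% counting intervals. MCM6 and MCM7 are near 12 FPKM, the other MCM subunits lie between 3.89 and 7.05 FPKM, and ORC4 is the tallest bar at 24.3 FPKM.

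Of the factors that fire origins and act at the fork, PCNA, the sliding clamp of DNA polymerases, was the single one above the median of the other named genes, at 14.0 FPKM [13.4 to 14.7]. PCNA also serves DNA repair in resting cells. The origin-firing kinase CDC7 had 2.37 FPKM, and CDC45 and MCM10, which join the helicase at firing, had 1.01 FPKM [0.787 to 1.28] and 1.57 FPKM [1.33 to 1.84]. The MCM relatives MCM8 and MCM9, which act in recombination, had 2.35 and 2.89 FPKM. MCM9 was the sum of 2 short transcripts of 479 and 588 nt.

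Genes of mitosis were low, and their kinases and checkpoint proteins had the lowest median of any role group. CDK1 had 4.84 FPKM [4.36 to 5.36], CCNB1 had 5.28 FPKM [4.93 to 5.66] and CCNB2 had 3.17 FPKM [2.81 to 3.56]. CDK2 was 1.16-fold [1.03 to 1.31] above CDK1. The mitotic kinases, checkpoint and chromosome proteins had a median of 1.81 FPKM over 10 genes, and 9 of the 10 were below the median of the other named genes. PLK1 had 2.09 FPKM, AURKA had 1.98 FPKM, AURKB had 1.38 FPKM and PLK4, the kinase of centriole copying, had 1.50 FPKM. PLK4 added transcripts of 621 and 804 nt, and with the higher one alone it had 0.804 FPKM. TOP2A, the topoisomerase of dividing cells, had 2.42 FPKM [2.25 to 2.61]. MKI67, the antigen used to stain dividing cells, had 1.02 FPKM [0.851 to 1.21], above 6.92% of named genes. Its level rested on 132 fragments of 1 transcript of 1998 nt. CDC20, which activates the anaphase-promoting complex, had 3.73 FPKM. The checkpoint kinases BUB1 and BUB1B had 1.64 and 0.919 FPKM. BUB3, their partner, had 32.6 FPKM [31.6 to 33.6], 19.8-fold [17.6 to 22.4] above BUB1, and was second among all members. BUB3 rested on 1 transcript of 2069 nt. Its symbol came from the mouse column alone.

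The CDC25 phosphatases, which remove inhibitory phosphates from CDKs, were at 4.29 FPKM for CDC25A, 2.72 FPKM for CDC25C and 1.91 FPKM for CDC25B. CDC25A was 2.25-fold [1.99 to 2.55] above CDC25B. CDKN3, a phosphatase that acts on CDK2 and is no inhibitor of the CDKN1 or CDKN2 type, had 2.44 FPKM.

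The polo-like kinases PLK5, PLK2 and PLK3 were higher than PLK1, while PLK4 was not (1.50 FPKM [1.17 to 1.90] against 2.09 FPKM). PLK5, a family member known from mouse neurons and glia, had 28.0 FPKM [27.1 to 28.9] and was sixth among the 84 members. PLK2, a stress- and activity-induced kinase of neurons, had 12.8 FPKM [12.3 to 13.3], 6.14-fold [5.44 to 6.92] above PLK1. PLK3 had 4.11 FPKM, 1.97-fold [1.71 to 2.26] above PLK1. PLK5 was named Plk5 in mouse and PLK5P in human.

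Several kinases that share the CDK name and have roles outside the division cycle were high, while CDK15 was the lowest of all members. Of the transcriptional CDKs all 4 were above the median of the other named genes. CDK9, which releases paused RNA polymerase II, had 30.2 FPKM [29.3 to 31.2], CDK7 of the general transcription factor TFIIH had 9.55 FPKM and CDK13 had 8.54 FPKM. CDK8 of the Mediator kinase module had 13.2 FPKM, but this sum mixed a transcript at 7.43 FPKM with one at 5.75 FPKM whose human name was CDC2L6, an older symbol of CDK19. Among the others, CDK16 had 27.9 FPKM [27.2 to 28.5] and CDK5, the kinase of postmitotic neurons, had 18.0 FPKM [17.5 to 18.6]. CDK14 had 27.2 FPKM as the sum of transcripts at 14.1 and 13.1 FPKM. CDK17 had 7.78 FPKM, CDK20 had 4.11 FPKM and CDK15 had 0.873 FPKM. CDK5 was close to CDK4, at a log2 ratio of -0.23 [-0.30 to -0.17].

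The rule also matched 6 symbols by their start alone. They name other proteins and include MKI67IP (30.7 FPKM), a nucleolar protein that binds the MKI67 antigen, CDKN2AIP (16.8 FPKM) and its relative CDKN2AIPNL (12.0 FPKM). AURKAIP1, a mitochondrial ribosome protein, had 3.25 FPKM on a transcript of 7601 nt, the longest of any member, CCNB1IP1 had 2.23 FPKM and PLK1S1, a centrosome protein, had 1.62 FPKM. With these left out, 74 of 78 members reached 1 FPKM and the median was 4.38 FPKM. Besides those named above, the symbols CCNB3, AURKC, CDK10, CDK12, CDK18 and CDK19 satisfy the rule and are in the Nile rat RefSeq table but were carried by no transcript, and they are not analysed here.

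Members linked to rest were set against members linked to proliferation, with lists drawn from textbook roles. The 10 genes linked to rest (CDKN1A, CDKN1B, CDKN1C, CDKN2B, CDKN2C, CDKN2D, RB1, RBL2, E2F4 and E2F5) had a median of 8.36 FPKM and ranged from 2.15 FPKM for E2F5 to 25.0 FPKM for CDKN1B. The 23 genes linked to proliferation (MKI67, TOP2A, CCNA2, the B-type cyclins, CDK1, AURKA, AURKB, PLK1, BUB1, BUB1B, CDC20, CDC25C, E2F1, MCM2-7, CDC6, CDC45 and CDT1) had a median of 2.72 FPKM and ranged from 0.903 FPKM for CDC6 to 12.4 FPKM for MCM7. The median was 3.07-fold higher in the first list, and 9 of its 10 genes lay above the median of the second. Only 22.6% of all named genes lay at or below that level, so most named genes lay above it too. In the second list 2 of 23 genes, MCM6 and MCM7, lay above the median of the first. That median fell between CDKN2D and CDKN2C, and 58.6% and 60.5% of all named genes lay at or below their levels. The summed level was 109 FPKM in the first list and 84.8 FPKM in the second, a ratio of 1.28 or 0.36 on the log2 scale. The direction of the sums depended on the choice of genes: with BUB3 and PCNA, high members in neither list, added to the second list, the log2 ratio of sums was -0.27 and that of medians was 1.44. The gene lists differ in length, and no test was made of either ratio.

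Other genes that work with the members had a similar middle level. Of 81 listed genes 76 carried a symbol, with a median of 4.61 FPKM. Of the 76, 72 reached 1 FPKM, a share close to the 93.2% of all named genes that did. The highest were CCNI at 59.9 FPKM, CCNG1 at 52.3 FPKM and CCNG2 at 33.4 FPKM, cyclins that are not tied to a phase of division. The lowest were CHEK1, a checkpoint kinase of replication, at 0.722 FPKM [0.530 to 0.960], MYBL2, an activator of mitotic genes, at 0.816 FPKM, and POLE, the catalytic subunit of a replicative polymerase, at 0.880 FPKM on a transcript of 280 nt. None of the 15 measured spindle and kinetochore genes was above the median of all named genes (median of the class 3.12 FPKM). Of the clamp loader, RPA and ligation genes, which replication shares with DNA repair, 9 of 10 were above it (median of the class 10.8 FPKM).

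**Figure D5:**
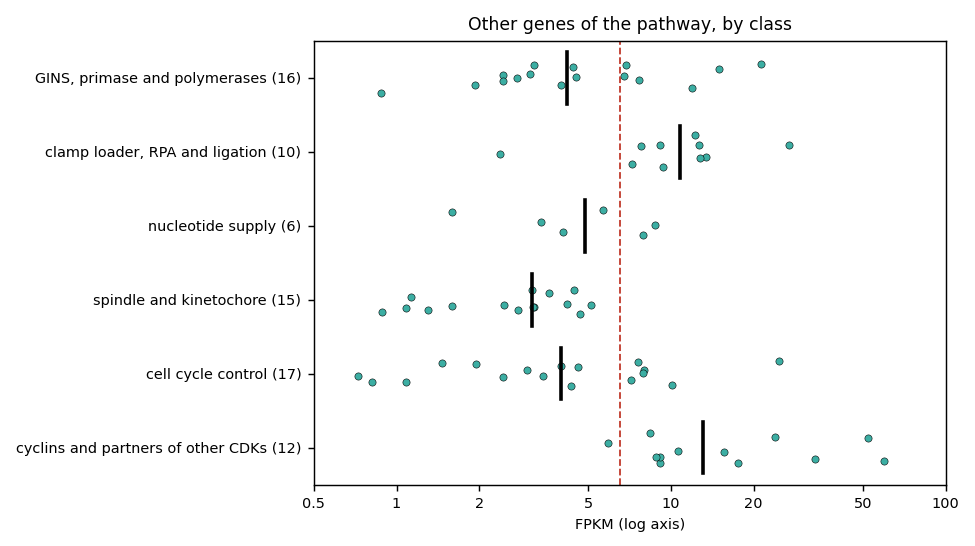
FPKM on a log axis of 76 other genes of the pathway by class, with the number measured in parentheses; each point is a gene (vertical scatter within a class has no meaning), black bars are class medians and the dashed line is the median of named genes outside the members. Spindle and kinetochore genes all lie left of the dashed line.

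Markers were read for cell types that could contribute RNA of dividing cells, but the lens epithelium had no list of its own. Since 93.2% of all named genes reached 1 FPKM, counts above that level do not by themselves show that a cell type was present. Of 9 listed markers of corneal and conjunctival epithelium 5 were measured. All 5 were above 1 FPKM, with a sum of 370 FPKM, led by KRT4 (144 FPKM). PAX6 (92.3 FPKM), KRT12 (91.0 FPKM) and KRT14 (40.2 FPKM) followed, and TRP63 had only 2.52 FPKM. KRT5, KRT15, TP63 and ALDH3A1 were not measured. The list of immune cells was lower in sum, at 94.4 FPKM, with 5 of 6 measured markers above 1 FPKM, led by CD74 (70.0 FPKM). CD74 made up most of that sum, and the list median was 5.16 FPKM, below the median of the other named genes. CSF1R had 12.1 FPKM, AIF1 had 6.54 FPKM and CD68 had 3.78 FPKM. PTPRC had 1.45 FPKM and CD79A had 0.526 FPKM. The list of blood vessels had 33.8 FPKM in sum, with 4 of 4 above 1 FPKM, led by KDR (12.9 FPKM). That of blood cell precursors had 19.0 FPKM in sum, with 3 of 3 measured above 1 FPKM, led by TFRC (9.10 FPKM). GATA1, also on the precursor list, was not measured, so that list does not show that precursors were present. Other lists were led by RLBP1 (432 FPKM, glia and pigment epithelium), DCN (603 FPKM, stroma) and TNNC2 (174 FPKM, muscle). The part of any of these cells in the levels of the members was not tested.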

How the data were processed

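The single value column was treated as 1 pool of Nile rat eye RNA; the labels' protocol describes pooling, but how the column relates to the 5 listed samples is not stated. Per the file headers, the FPKM deposited by the authors was given per transcript beside an estimated count of fragments and a length. Per the submitters' processing notes Bowtie was used; no version, genome build or counting method is given in the sources used. Of the 92 member transcripts, 30 had a fractional count. Each transcript took its first symbol in the order mouse, rat, human, and FPKM was summed per gene; 76 members had 1 transcript and 8 had 2. For 79 of the 84 members the symbol was also in the Nile rat RefSeq table (mArvNil1.pat.X). Intervals are 95% gamma (Fay-Feuer) for levels and delta-method for ratios, both for Poisson counts. Their coverage was checked on simulated Poisson counts, which cannot show that the Poisson assumption suits these data. The intervals cover counting error only, and PCR copies are not independent molecules. Members and lists were chosen with earlier results of these data known. The text names all members, the 3 highest and 3 lowest other pathway genes and the highest marker of each list; further genes were chosen after their values were seen. Alternatives were other ways to combine transcripts, other naming, a 500 nt minimum, other thresholds, rescaling, a pseudocount of 1 and fragments. Planned left-out-replicate checks, promoter motifs and protein comparisons could not be made with 1 column and no sequences. Tables were computed with pandas 2.3.3 and NumPy 2.4.6 in Python 3.11.15, intervals with SciPy 1.17.1, and figures with Matplotlib 3.10.9.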

Additional observations from a re-analysis of the deposited data

Results flagged for a closer look

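Transcripts of CDKs that the symbol rule passed over carried signal above the limit that a count of 0 allows. A transcript named CRK7 in rat, an older symbol of CDK12, had 2.70 FPKM [2.53 to 2.87], where 3 fragments would give 0.00844 FPKM. A transcript named PCTK3 in human, an older symbol of CDK18, had 6.88 FPKM [6.51 to 7.27]. CDK11B, whose symbol ends in a letter, had 21.0 FPKM [20.3 to 21.7]. These symbols were looked up after the values were seen.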

How the results depend on the processing

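The members stayed below the other named genes in the ratio of medians under each of the 9 alternatives run on it, and their counts at 1, 5 and 10 FPKM stayed within 1.5 times. Combining transcripts mattered for genes in several pieces. With the highest transcript of each gene the ORC2-6 span was 3.30-fold and the log2 ratio of sums, genes linked to rest over those linked to proliferation, was 0.24. With a length-weighted mean these were 3.26-fold and 0.18, and with transcripts of at least 500 nt the span was 3.30-fold. The median of the members was 4.69 FPKM with symbols in the order human, rat, mouse, 4.11 FPKM with transcripts whose symbols did not differ and 4.87 FPKM over genes reaching 1 FPKM. The log2 ratio of sums was 0.47 and 0.51 under the first 2 of these, where no ORC2-6 span could be given because subunits lost their symbol. Adding the older ORC symbols, chosen after seeing the data, gave a span of 7.38-fold. Adding BUB3 and PCNA to the genes linked to proliferation, also chosen after seeing the data, turned the log2 ratio of sums to -0.27 and left that of medians at 1.44. Of the 24 pairs, CDKN1B over CDKN1C was the single one with an interval off 0 to change sign (-0.20, length-weighted mean). The causes were not tested beyond these constructions. No paired analysis was possible because the table has 1 column. Depth limits the low members: 77 of 84 had at least 100 fragments, and 54 had an interval within 10% of the level.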

Other observations

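In the class of cyclins and partners of other CDKs 12 of 12 genes were measured, all above 5 FPKM (median 13.1 FPKM). Of all named genes 59.8% reached 5 FPKM. The class also holds CCNI, CCNG1 and CCNG2, its highest genes, which are cyclins not tied to a phase of division. CDK5 at 18.0 FPKM stood beside its activators CDK5R2 (p39) at 17.6 FPKM and CDK5R1 (p35) at 10.6 FPKM. CDK7 at 9.55 FPKM stood beside CCNH at 8.84 FPKM [8.19 to 9.54]. CDK9 at 30.2 FPKM was above both of its cyclins, CCNT1 at 8.38 FPKM and CCNT2 at 9.15 FPKM. CCNC, the cyclin of CDK8, had 15.5 FPKM and CCNK, that of CDK12 and CDK13, had 5.90 FPKM. TFDP1, which pairs with E2F factors to bind DNA, had 24.8 FPKM as the sum of 2 transcripts. This sum was above every E2F factor measured, each carried by 1 transcript, while TFDP2 had 3.96 FPKM. These genes, apart from the members, were chosen after their values were seen.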
